A study of Mus musculus with 6 samples.

Results

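Binding of the ETS-family transcription factor PU.1 was examined at the loci of 9 genes of the macrophage surface and lysosome: Lyz2, Lyz1, Cd14, Tlr2, Tlr4, Mrc1, Ctss, Fcgr3 and Cd68. The genes lie in 8 windows of mouse build mm9, with Lyz2 and Lyz1 in the same window, and every ChIP-seq peak that overlapped a window by at least 1 bp was taken. The windows span 840 kb in all. They may also hold other genes, so a region of a window is not assigned to the named gene. Peaks of the 4 libraries merged into 122 regions in these windows, of 82810 regions in the whole genome. The cells were iBN cells, a mouse line labelled as a granulocyte-macrophage progenitor, grown with GM-CSF and carrying an inducible PU.1 system in both groups. The induced group was kept with doxycycline at 1000 ng per ml over 72 hours, and the uninduced group is the untreated control. Each group had 2 PU.1 ChIP libraries (induced 1 and 2, uninduced 1 and 2), and the authors also deposited 1 merged peak list per group. The labels do not say which promoter drives the system, whether the line is 1 clone or whether replicates came from separate cultures. RNA was not measured in these files, so the labelled cell type could not be checked against its marker genes.

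PU.1 is needed for the formation of macrophages, and many genes of this cell type carry PU.1 sites in their promoters and in distal enhancers. The factor recognises a purine-rich sequence around a GGAA core. Most of the 9 genes serve 3 tasks of the macrophage. Cd14, Tlr4 and Tlr2 sense bacteria at the surface, and Mrc1 and Fcgr3 bind particles and antibodies for uptake. Lyz2, Lyz1 and Ctss digest what was taken up. Cd68 encodes a glycoprotein of the lysosomal membrane.

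The GGAA core is shown here in RefSeq promoters of the members, since it is the sequence the precipitated factor is known to bind. RefSeq promoters of build GRCm38.p6, 250 bases before to 50 bases after a gene's start, were matched by symbol for 7 of the 9 genes, and those of Cd14 and Tlr4 were not used here. The motifs searched, on both strands, were GAGGAA and GGAAGT, which can overlap in GGAA. At least 1 of them was found for all 7 genes, against 43.4% of all 32851 promoters in the table. GGAAGT was found for 6 of the 7 (23.8% of all promoters) and GAGGAA for 4 of the 7 (28.3%). These counts take Lyz2 and Lyz1 separately, though their promoters had the same base at 92 of the last 100 positions before the start. A match is a description of letters and not a measured site. These positions belong to another build than the peaks and were not converted, so it is not known which peak, if any, covers them. The stretches below are written 5′ to 3′ along the gene's strand, with the motif or its reverse complement in capitals, and their positions are in GRCm38.p6.

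Lyz2 (chr10:117282273-117282392, minus strand, 120 bases up to the start): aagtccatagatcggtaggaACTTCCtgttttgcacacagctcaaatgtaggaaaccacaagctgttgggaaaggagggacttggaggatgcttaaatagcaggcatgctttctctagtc
Lyz1 (chr10:117292869-117292988, minus strand, 120 bases up to the start): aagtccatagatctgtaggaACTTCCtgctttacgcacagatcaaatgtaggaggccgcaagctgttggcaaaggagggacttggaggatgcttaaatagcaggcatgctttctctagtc
Ctss (chr3:95526766-95526795, plus strand, 30 bases across the start): aaaccgaaatgaaagttcACTTCCTCattg
Mrc1 (chr2:14229194-14229253, plus strand, 60 of the 250 bases before the start, not adjoining it): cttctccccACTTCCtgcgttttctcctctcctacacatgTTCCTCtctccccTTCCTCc
Tlr2 (chr3:83841609-83841668, minus strand, 60 bases up to the start): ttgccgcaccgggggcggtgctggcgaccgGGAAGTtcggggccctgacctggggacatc

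The Lyz2 and Lyz1 stretches carry the GGAAGT motif at the same place, beginning 100 bases before the start. In the last 100 bases before the start the 2 genes had the same base at 92 positions, and over 250 bases at 60.8% of positions. Lyz2 and Lyz1 are paralogs that lie next to each other. The labels do not say how reads matching both copies were placed, so peaks are described for their common window and not for either gene. In Ctss both motifs overlap across the start, and in Mrc1 a GGAAGT and 2 GAGGAA matches lie within 60 bases.

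The windows held more peaks and more covered sequence in both induced libraries than in either uninduced library. Induced 1 had 115 peaks in the 8 windows, induced 2 had 95, uninduced 1 had 47 and uninduced 2 had 67. The means were 105 ± 14.1 peaks in the induced and 57.0 ± 14.1 in the uninduced libraries (SD, n = 2 each), a ratio of 1.84. Over the whole lists the ratio was 1.67. Peaks covered 148.7 and 110.1 kb of the windows in induced 1 and 2, and 50.1 and 68.6 kb in uninduced 1 and 2. Covered length had a ratio of 2.18 in the windows and 1.94 over the whole lists. The groups did not overlap in either measure, in the windows or over the whole lists. The exact permutation test, two-sided, gave p = 0.333 for both, the smallest that 2 libraries against 2 allow, so no comparison of this design can pass a threshold of 0.05.

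The difference in peak number moved with the length of the lists, which ran from 31960 peaks in uninduced 1 to 68076 in induced 1. When each list was limited to its 31960 best-scoring peaks, the windows held 59 and 57 peaks with induction, against 47 and 58 without it. The groups then overlapped, and the difference of means was 5.5 peaks instead of 48. Covered length stayed apart with lists of equal length, at 97.3 and 77.0 kb in the induced and 50.1 and 61.8 kb in the uninduced libraries. The covered length of the whole lists is not given for this setting. The lowest score kept was 180.36 and 120.67 in induced 1 and 2, and 71.15 in uninduced 2, while uninduced 1 was not cut. Low-scoring peaks were thus removed mostly from the induced lists, and lengths were compared above unlike score limits. The part of this cut in the covered length was not tested. Read depth is unknown, and its part in these counts was not tested.

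Each window was denser in peaks than the mean genome tile in every library. Over 18900 tiles of 100 kb with a peak in any library, the mean was 3.60 and 3.03 peaks per tile in induced 1 and 2, and 1.69 and 2.27 in uninduced 1 and 2. The lowest density in a window was 8 peaks per 100 kb in the induced libraries (Ctss, induced 2) and 3 in the uninduced libraries (Ctss, uninduced 2). The highest was 17.0 in the Cd14 window in induced 2. The share of tiles at least as dense as a window ran from 0.238% (Tlr2, uninduced 2) to 32.6% (Ctss, uninduced 2). Tiles counted a peak by its midpoint and windows by any overlap, which can raise the window values. Peak numbers were higher in both induced libraries in 7 windows, and in the Tlr2 window the groups overlapped. Covered length was higher in both induced libraries in all 8 windows. Over the whole lists both measures were also higher in both induced libraries. The share of genome tiles where the groups separate is not given here.

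**Figure D1:**
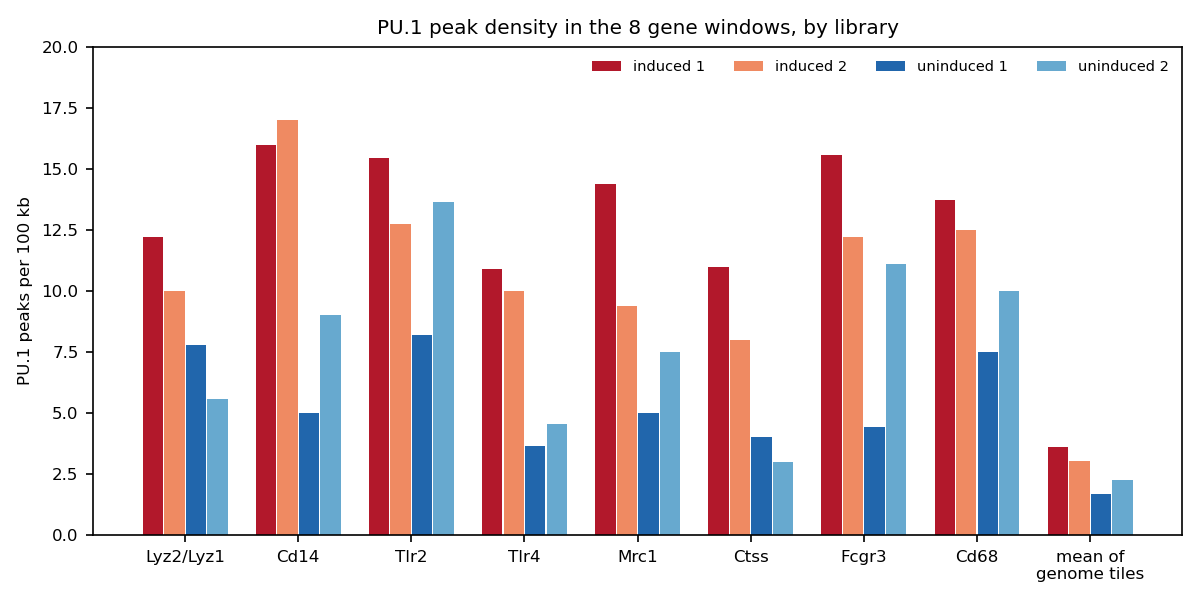
Bars give PU.1 peaks per 100 kb in each window for each of the 4 libraries, and the last group gives the mean over 100 kb tiles of the genome. Induced bars (reds) lie above uninduced bars (blues) in every window except Tlr2, where uninduced 2 had 13.6 peaks per 100 kb and induced 2 had 12.7.

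Regions were sorted by the libraries that had a peak in them: shared regions had one in every library, gained regions in the induced pair alone, lost regions in the uninduced pair alone, and mixed regions in any other combination. Of the 122 regions 41 were shared (33.6%, against 23.4% of all regions of the genome). A further 24 were gained (19.7%, against 22.2%), so the share of gained regions in these windows was close to that of the genome. None was lost, where the genome had 3.80%. The other 57 were mixed, and the most frequent mixed patterns were 24 regions found only in induced 1 and 18 found in both induced libraries and uninduced 2. Of the 43 regions with a peak in both uninduced libraries, 41 (95.3%) had one in both induced libraries, against 80.3% in the genome. With lists of equal length 10 regions of 82 were gained (12.2%, against 12.4% in the genome) and 3 were lost (3.66%, against 8.53%). When 1 library was left out, the number of gained regions moved with that of the genome. It was 30 without induced 1 (29.4%, against 31.4% in the genome) and 48 without induced 2 (40.3%, against 39.3%). It was 28 without uninduced 1 (23.1%, against 25.4%) and 42 without uninduced 2 (35.0%, against 38.4%). In the authors' merged lists, 49 of 113 induced peaks of the windows met no uninduced peak (43.4%, against 53.4% of all merged induced peaks). In the opposite direction, 1 of 66 merged uninduced peaks met no induced peak (1.52%, against 22.4%).

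**Figure D2:**
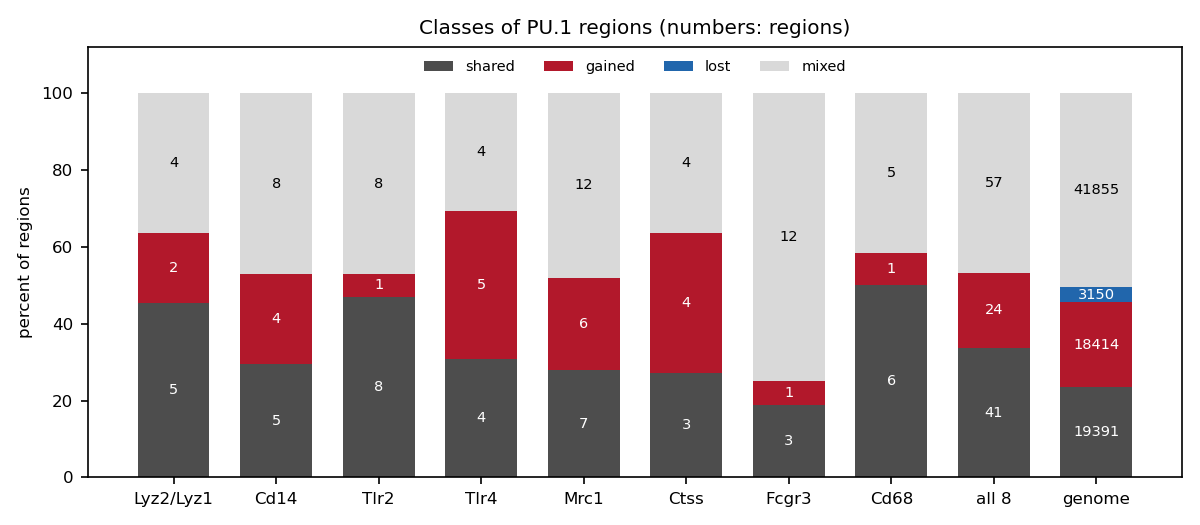
Stacked bars give the percentage of regions of each class per window, for all 8 windows and for the genome, with the number of regions written inside. Gained regions make up the largest share in the Tlr4 window (5 of 13) and the smallest in the Tlr2 window (1 of 17), and no window has a lost region.

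In the induced libraries the 24 gained regions had median scores of 197.6 and 123.9 in induced 1 and 2, against 137.8 and 94.7 for all gained regions of the genome. The score is the authors' own value per peak, on a scale that the labels do not give, so it orders peaks within 1 list and does not measure a change between lists. A shared region was found within 10 kb of 14 of these 24 (58.3%), against 33.1% of all gained regions, in windows denser in peaks than the mean genome tile.

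**Figure D3:**
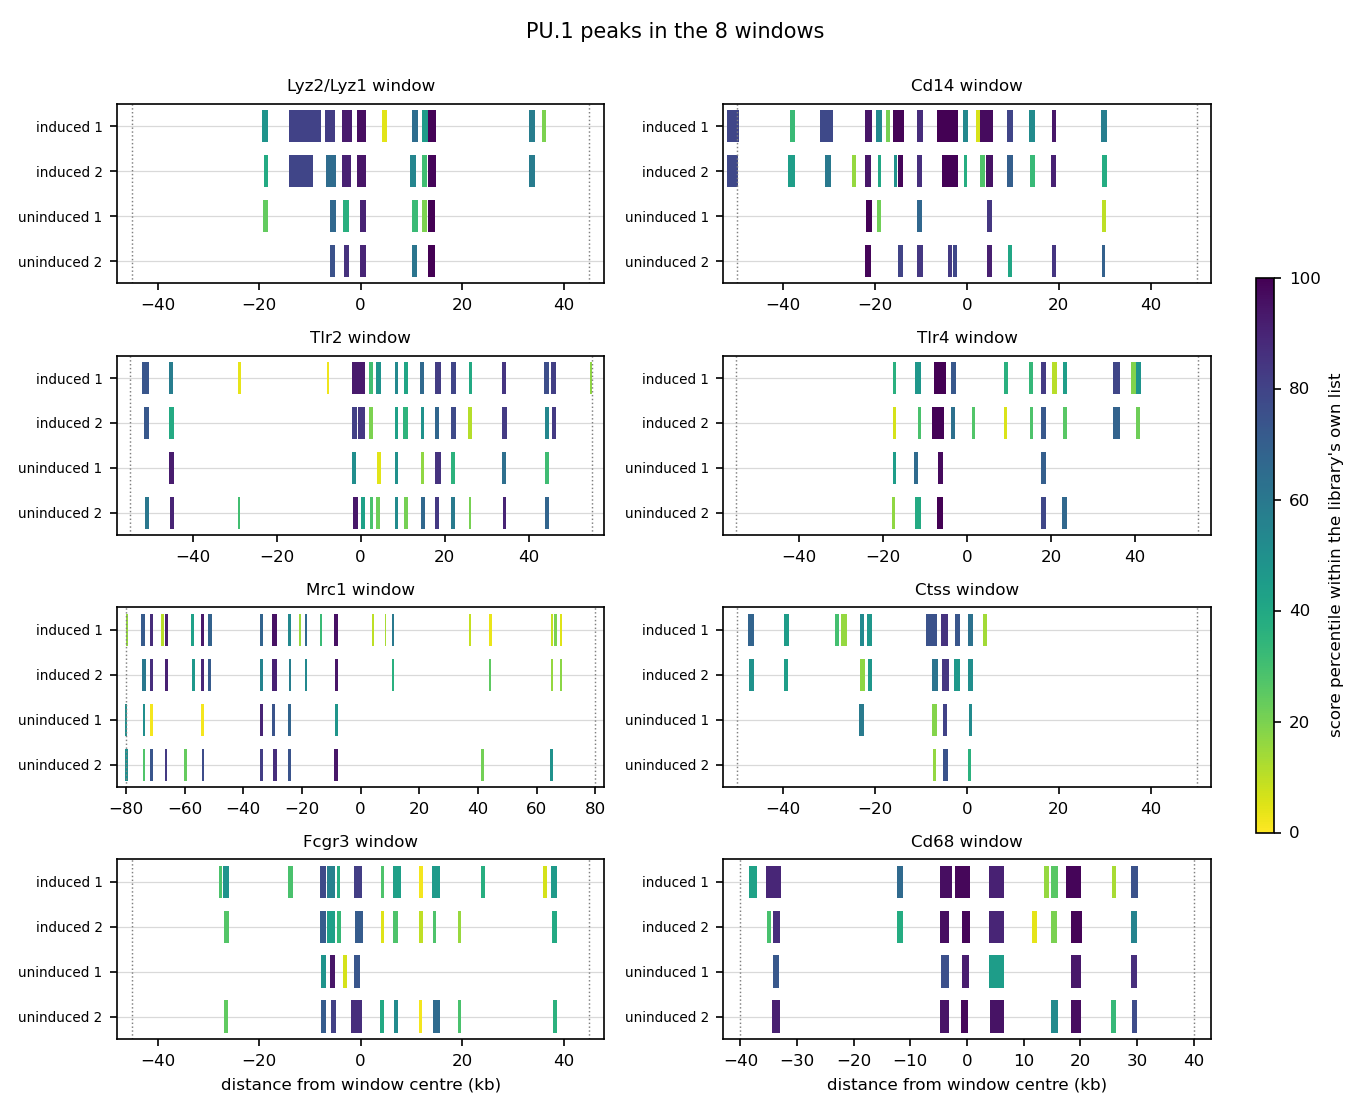
Each panel shows 1 window, with a row per library, boxes for peaks at their true width, and dotted lines at the window's limits. The horizontal axis is the distance from the window's centre in kb, and darker boxes stand for a higher score percentile within that library's own list. The Lyz2 and Lyz1, Cd14, Tlr4 and Cd68 windows each hold a dark box in all 4 rows, and the Cd14 window holds 16 boxes in induced 1 and 5 in uninduced 1.

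Cd14 is the surface protein that hands bacterial lipopolysaccharide to the Tlr4 receptor complex. Its window (chr18:36840001-36940000) had 16 and 17 peaks in induced 1 and 2, and 5 and 9 in uninduced 1 and 2. The highest-scoring mixed region of the window was chr18:36883569-36888071, with scores of 3100 and 2282.78 in induced 1 and 2, none in uninduced 1 and 347.38 in uninduced 2. In induced 1, 367 peaks had a score of exactly 3100, so it does not order this peak among them. The induced peaks of this mixed region were 4439 and 3408 bp wide, whereas the widest peak of uninduced 2 was 859 bp. Further mixed regions had the same pattern, such as chr18:36873997-36876316, with scores of 2652.9, 1665.46 and 302.22 in induced 1, induced 2 and uninduced 2. That region was chosen for mention after its values were seen.

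The 4 gained regions of the Cd14 window scored lower. The strongest, chr18:36857907-36860831, scored 466.57 and 186.34 in induced 1 and 2. The others were chr18:36851068-36852682 (99.17 and 120.68), chr18:36889244-36890312 (182.2 and 104.05) and chr18:36903513-36904808 (175.8 and 91.91). All 4 lay below the shared regions named next in the induced lists.

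Of the 5 shared regions of the Cd14 window, the one with the highest lower induced score was chr18:36892883-36895655. It scored 1805.32 and 1029.91 with induction, against 376.25 and 554.8 without it. The next, chr18:36867709-36869228, scored 1295.14 and 911.51 with induction, against 2402.94 and 1344.54 without it, and was the highest-scoring region of the window without induction. The third, chr18:36879104-36880351, scored 768.96, 551.6, 171.75 and 359.55 in induced 1 and 2 and uninduced 1 and 2. A shared region at the edge, chr18:36837675-36840326, reached into the window with its induced peaks (489.23 and 368.29) only, and its uninduced peaks (63.72 and 234.88) lay outside.

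Tlr4 is the receptor for lipopolysaccharide. Its window (chr4:66440001-66550000) held 12 and 11 peaks with induction, against 4 and 5 without it. A single region stood out in all 4 libraries, chr4:66486627-66490004, with scores of 3196.23 and 2148.77 in induced 1 and 2 and 1426.21 and 2315.89 in uninduced 1 and 2. Its peaks were 2951 and 2970 bp wide in the induced and 1265 and 1220 bp in the uninduced libraries. The other named shared regions were chr4:66512562-66513871 (597.81, 296.94, 190.4 and 288.36 in the same order) and chr4:66482477-66484144 (148.92, 84.22, 162.27 and 90.66).

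The Tlr4 window had 5 gained regions of 13 (38.5%, against 22.2% in the genome), the largest share of any window. The strongest were chr4:66529757-66531390, with 493.4 and 252.09 in induced 1 and 2, and chr4:66491154-66492290, with 375.14 and 211.43. The second of these lies next to the strong shared region. The remaining 3 were weaker, at chr4:66535305-66536372 (154.77 and 74.04), chr4:66503723-66504683 (111.15 and 54.62) and chr4:66509778-66510789 (102.21 and 83.45). The highest mixed region, chr4:66517699-66518905, scored 137.77 and 79.65 in the induced libraries and 184.84 in uninduced 2.

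Tlr2 recognises bacterial lipoproteins. Its window (chr3:83590001-83700000) was dense without induction too, with 9 and 15 peaks in uninduced 1 and 2. Induced 1 and 2 had 17 and 14 peaks there. Of its 17 regions 8 were shared (47.1%, against 23.4% in the genome). Only chr3:83690323-83691614 was gained (5.88%, against 22.2%), with scores of 559.13 and 452.95. The strongest shared region by the lower induced score was chr3:83642913-83646122, with 1175.62 and 473.35 with induction, against 107.93 and 663.17 without it. It was followed by chr3:83678596-83679756 (659.52, 447.45, 155.12 and 511.83) and chr3:83666514-83667639 (507.33, 356.62, 80.23 and 147.91). The highest mixed region, chr3:83592854-83594661, scored 383.1 and 297.76 in the induced libraries and 151.55 in uninduced 2.

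Mrc1 is the macrophage mannose receptor, an endocytic lectin. The window (chr2:14100001-14260000) is the longest at 160 kb and had 23 and 15 peaks with induction, against 8 and 12 without it. Its named shared regions were chr2:14171036-14172430 (1495.22 and 948 with induction, 100.74 and 692.14 without it), chr2:14149790-14151516 (1443.21, 725.34, 229.91 and 429.46) and chr2:14125481-14126684 (1226.87, 646.73, 51.1 and 267.25). In uninduced 1 the third of these lay close to the minimum score of 50. The highest mixed region, chr2:14113184-14114410, scored 1030.81 and 708.16 in the induced libraries and 343.16 in uninduced 2, with no peak in uninduced 1.

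The Mrc1 window, the longest, had 6 gained regions of 25, the highest number of any window. Its share of gained regions, 24.0%, was close to the 22.2% of the genome. The strongest were chr2:14128118-14129217 (319.93 and 283.56 in induced 1 and 2) and chr2:14160916-14161859 (275.93 and 154.45). The next were chr2:14190689-14191269 (225.09 and 100.29) and chr2:14122254-14123393 (132.58 and 128.48). The last, chr2:14223848-14224611 (52.87 and 78.18) and chr2:14247851-14248708 (54.65 and 67.44), lay near the lowest score of 50 that the lists hold.

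Fcgr3 is a low-affinity receptor for IgG, and in the RefSeq table Fcgr2b and Fcgr4 are its neighbours on 1 side and Cfap126 on the other. The window (chr1:172950001-173040000) had 14 and 11 peaks with induction, against 4 and 10 without it, so the uninduced libraries differed from each other by more than the induced ones. Of 16 regions 12 were mixed (75%, against 50.5% in the genome), 3 were shared (18.8%, against 23.4%) and 1 was gained (6.25%, against 22.2%). The gained region, chr1:172990304-172991046, had scores of 114.03 and 92.65. The highest peak of the window, at 564.76 in induced 1 and 280.99 in induced 2, scored below the highest peak of each other window in the same library.

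The shared region of the Fcgr3 window with the highest lower induced score was chr1:172993022-172995361 (564.76 and 280.99 with induction, 217.73 and 425.39 without it). It was followed by chr1:172986985-172988241 (460.25, 278.25, 101.52 and 217.58). The third, chr1:172988317-172990094, had the highest uninduced 1 score of the window, with 204.8 and 118.16 with induction, against 855.98 and 309.06 without it. The highest mixed region, chr1:173009068-173010632, scored 145.14, 82.88 and 175.9 in induced 1, induced 2 and uninduced 2.

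Lyz2 and Lyz1 encode lysozymes, enzymes that cut bacterial cell walls. Their window (chr10:116680001-116770000) had 11 and 9 peaks with induction, against 7 and 5 without it. The strongest region was bound without induction: chr10:116738263-116739912 scored 3115.15 and 2784.67 in uninduced 1 and 2, and 2639.43 and 1662.2 in induced 1 and 2. The other named shared regions were chr10:116724182-116726122 (1607.05 and 953.96 with induction, 592.2 and 495.6 without it) and chr10:116721272-116723272 (1143.11, 724.65, 81.73 and 400.37).

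A broad gained region lay in the same window, chr10:116710807-116717176. The peak was 6370 bp wide with a score of 529.25 in induced 1 and 4594 bp wide with a score of 390.46 in induced 2. Only 42 of the 68076 peaks of induced 1 (0.0617%) and 75 of the 57336 peaks of induced 2 (0.131%) were at least as wide. Neither uninduced library nor the merged uninduced list had a peak there. The other gained region, chr10:116758232-116759379, scored 212.96 and 179.31. The highest mixed region, chr10:116705640-116706800, scored 155.83 and 107.29 in the induced libraries and 67.45 in uninduced 1.

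Ctss encodes cathepsin S, a cysteine protease of the lysosome and of antigen processing, and RefSeq places Ctsk, the gene of a related protease, next to it. The window (chr3:95280001-95380000) had the fewest peaks over the 4 libraries together, with 11 and 8 with induction, against 4 and 3 without it. Its 3 shared regions were chr3:95324439-95326033 (681.7 and 475.14 with induction, 303.4 and 242.27 without it), chr3:95321184-95323611 (406.48, 197.45, 62.95 and 62.29) and chr3:95330166-95331242 (250.93, 143.64, 110.6 and 85.48). The 4 gained regions were chr3:95327259-95328477 (378.84 and 126.63 in induced 1 and 2), chr3:95282405-95283597 (309.26 and 137.06), chr3:95308278-95309398 (149.11 and 129.1) and chr3:95290116-95291161 (140.72 and 121.19). The first of them sits between the shared regions. The highest mixed region, chr3:95306604-95307713, scored 180.75 and 66.83 in the induced libraries and 132.71 in uninduced 1.

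Cd68 encodes a glycoprotein of the lysosomal membrane that is used as a macrophage marker. The window (chr11:69440001-69520000) held 11 and 10 peaks with induction, against 6 and 8 without it. Of its 12 regions 6 were shared (50%, against 23.4% in the genome), the highest share of any window. They included chr11:69497516-69500252 (2476.68 and 1829.28 with induction, 778.67 and 925.22 without it), chr11:69477929-69480465 (2203.83, 1658.4, 685.83 and 1217.71) and chr11:69475201-69477381 (1627.95, 1134.01, 242.64 and 731.04). The only gained region, chr11:69467597-69468728, scored 283.05 and 104.57, and the highest mixed region, chr11:69441572-69442967, scored 130.01 in induced 1 alone. In this window the peaks ranked high in the uninduced lists too, with a median at the 81.2 and 92.9 percentile of scores in uninduced 1 and 2.

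Taking the peaks of the 8 windows together, their median score percentile was 53.1 and 53.5 in induced 1 and 2, and 58.8 and 71.4 in uninduced 1 and 2, where the median of a whole list is at 50. Single windows lay on either side of 50. Their own median was below 50 in 3 windows in induced 1 (Tlr4, Mrc1 and Fcgr3), 3 in induced 2 (Tlr4, Ctss and Fcgr3), 2 in uninduced 1 (Lyz2 with Lyz1, and Tlr2) and 2 in uninduced 2 (Ctss and Fcgr3). The lowest were 27.8 in the Fcgr3 and 28.1 in the Tlr4 window, both in induced 2. With lists of equal length the values over all windows were 56.7, 51.6, 58.8 and 67.6. The tenth of a list with the highest scores held 18 of 115 window peaks in induced 1 (15.7%), 15 of 95 in induced 2 (15.8%), 8 of 47 in uninduced 1 (17.0%) and 13 of 67 in uninduced 2 (19.4%). The highest peak of a window had a median percentile between 93.9 and 97.2 over the 4 libraries.

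To compare sites bound in both conditions, all 19391 shared regions of the genome were ranked by score within each library, so that every library ranks the same regions. Among the 41 shared regions of the windows, 12 had both induced ranks above both uninduced ranks (29.3%, against 30.6% in the genome) and 10 had both below (24.4%, against 30.8%). The median shift of the 41 was 3.55 percentile points, against 0.219 in the genome, and it was -1.57 without uninduced 1. The sign of this median thus rested on uninduced 1, and shifts of single regions ran from -64.4 to 50.3 points.

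The largest shifts upward lay in the Mrc1 window. There 4 of 7 shared regions ranked higher in both induced than in both uninduced libraries, against 30.6% of shared regions in the genome. Over the 41 shared regions of the windows together this share was 29.3%. At chr2:14125481-14126684 the rank was at the 81.4 and 74.8 percentile in induced 1 and 2, and at 0.949 and 54.6 in uninduced 1 and 2. At chr2:14108214-14109289, chosen after its values were seen, it was at 67.2 and 69.3 against 0.735 and 48.1. In both regions the 2 uninduced libraries lay far apart, with uninduced 1 close to the bottom of the list.

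The shifts downward, also singled out after the values were seen, included a region in the Tlr2 window, chr3:83599358-83600480. Its scores were 214.22 and 107.03 in induced 1 and 2 and 702.94 and 518.43 in uninduced 1 and 2, and its ranks were at 22.8 and 15.1 against 87.7 and 79.2. At chr1:172988317-172990094 in the Fcgr3 window the ranks were 21.5 and 17.9 against 90.7 and 60.6. At chr2:14145636-14146761 in the Mrc1 window they were 33.6 and 27.3 against 83.0 and 62.7. Upward and downward shifts thus stood side by side in the Mrc1 window. Of the 8 shared regions of the Tlr2 window 3 lay down and 1 up, against 30.8% and 30.6% of shared regions in the genome. None of the 4 shared regions of the Tlr4 window separated the groups.

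**Figure D4:**
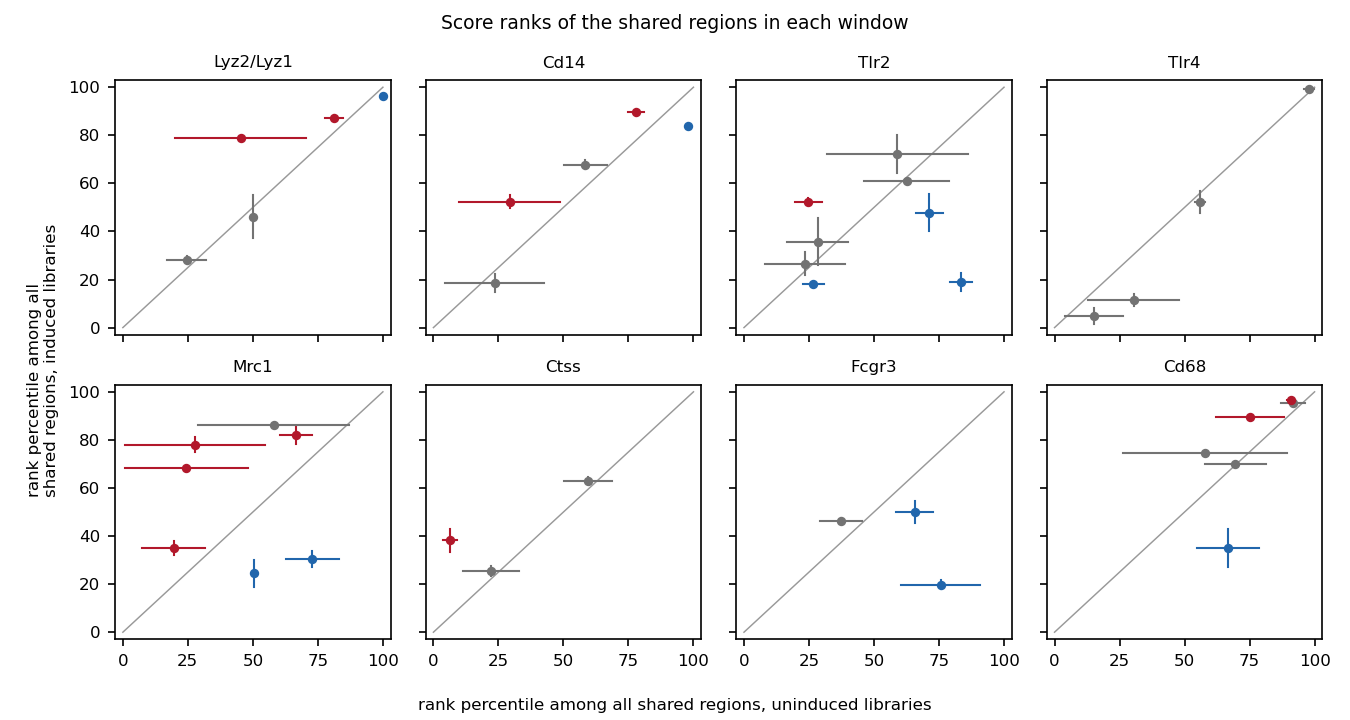
Each point is a shared region, placed at its mean rank percentile in the uninduced (horizontal) and induced (vertical) libraries, with lines that join the 2 libraries of each group. Red points have both induced ranks above both uninduced ranks, blue points both below, and grey points overlap. The diagonal marks equal ranks. Blue points lie far below the diagonal in the Tlr2, Mrc1, Fcgr3 and Cd68 panels, and the Mrc1 panel has 4 red points above it.

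Shared regions of the windows were often wider in the induced libraries. The widest peak of a region was wider in both induced than in both uninduced libraries in 26 of 41 shared regions (63.4%, against 49.1% in the genome) and narrower in none (against 5.82%). The median width of these peaks was 1482 and 1187 bp in induced 1 and 2, and 1056 and 1051 bp in uninduced 1 and 2. List length and score differed between the groups too, and their part in this difference was not tested.

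The Ctss window lies in the segment of chromosome 3 between 85 and 120 Mb. The 313 shared regions of this segment had a median rank shift of 15.3 points, against 0.219 in the genome. Both induced ranks lay above both uninduced ranks in 164 of the 313, against 30.6% of shared regions in the genome. In 40 both lay below, against 30.8%. The 3 shared regions of the Ctss window had shifts of 31.7, 3.55 and 3.39 points, and in the first of these the groups did not overlap.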

How the data were processed

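PU.1 ChIP-seq was analysed from 4 peak lists, 2 per condition, and 2 merged lists. The 2 input libraries of the series were not analysed here. The build was mm9, and MACS 1.4.1, Bowtie and Trim Galore are the tools, per the submitters' processing notes. Not given in the sources used here are settings, controls of peak calling and the way of merging. The authors deposited a score per peak, with a minimum of 50 and between 18 and 367 peaks per replicate list at exactly 3100. The labels do not name its scale. Read depth is unknown, so an absent peak means only that none was called.

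Samples were grouped by title. Peaks were merged into regions when they shared at least 1 bp, and positions are counted from 1. A percentile is the rank of a score within its list. An exact permutation test, two-sided and over the 4 libraries, compared the number of peaks and the length they cover. Named regions are every gained or lost region of a window, its 3 shared regions with the highest lower induced score, and its highest mixed region. The windows and these rules were chosen with earlier results of these data known. The planned list of further macrophage genes was not run, since no mm9 annotation was used here; for the same reason no peak is assigned to an exon, intron or promoter. Gene order and promoters come from RefSeq tables of GRCm38.p6. The functions were tested on simulated peak lists. Python 3.11.15, NumPy 2.4.6, SciPy 1.17.1 and matplotlib 3.10.9 were used. A p-value here is the share of label arrangements with a difference of means at least as large as the observed one. It refers to these libraries only. SDs measure only the spread between these libraries, which may be technical.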

Additional observations from a re-analysis of the deposited data

How the results depend on the processing

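The difference in peak number and in covered length kept its direction in every alternative run. It ranged from 5.5 peaks (lists of equal length, exact permutation p = 0.667) to 60 (windows widened by 20 kb), and from 31.2 to 89.3 kb. Leaving out 1 library gave 38 to 58 peaks and 50.7 to 89.3 kb. With a replicate block, where labels were permuted within replicate numbers, the differences stayed at 48 peaks and 70.0 kb with an exact p of 0.5, the smallest that 2 pairs allow. The numbers were not shown to pair the libraries (r = -0.0254 between same-numbered deviations across shared regions), and the labels do not say that they do. Main class counts were 41 shared, 24 gained, 0 lost and 57 mixed. With an overlap of 50% of both intervals 1 region was lost. With scores of at least 100, 26 were shared and 1 was lost. With lists of equal length 10 were gained, 3 lost and 35 mixed. In the merged lists 64 induced peaks were shared, 49 were gained (43.4%, against 53.4% of all merged induced peaks) and 1 uninduced peak was lost (1.52%, against 22.4%). Without 1 library the counts were 41 to 59 shared, 28 to 48 gained, 0 to 2 lost and 28 to 32 mixed. Genome shares of shared and lost regions are not given for the 50% overlap, the score limit or the runs without 1 library. Whether these counts moved with the genome is thus not known. The mean of the median score percentiles was 59.2, between 55.2 and 61.3 without 1 library, and 95.9 for the highest peak of each window. The median rank shift of shared regions was 3.55 points, 3.62 without regions scoring 3100 or more, -1.57 without uninduced replicate 1, and between -1.57 and 8.17 over all libraries left out. The rank shift and all 5 of its alternatives were added after the data were seen. The causes of these changes were not tested. The minimum score of 50 limits what an absent peak can show.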

Other observations

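The merged lists held a few peaks in the windows that their own replicates lacked, all in the Mrc1 window. The merged induced list had 3 of them. Those at chr2:14157503-14158394 (score 53.56) and chr2:14193433-14194346 (score 63.3) met no peak of any library, and the one at chr2:14119740-14120819 (score 96.46) met a peak of uninduced 2. The merged uninduced list had 1, at chr2:14122426-14123411 (score 54.54), which lies in a region classed as gained from the 4 libraries.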
